A study of Mus musculus with 5 samples.

Results

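HOX genes are the members of the Hoxa, Hoxb, Hoxc and Hoxd loci, and they were chosen here by symbol alone: every feature of the ovary count tables named Hox, a locus letter from a to d and a number. The rule found 40 features of 31053, which carry 39 symbols, because Hoxd4 stands under 2 gene identifiers. Of the 40 features, 11 lie in the Hoxa locus on chromosome 6 (GRCm38), 10 in Hoxb on chromosome 11, 9 in Hoxc on chromosome 15 and 10 in Hoxd on chromosome 2. A unique molecular identifier (UMI), the tag that counts 1 captured RNA molecule, was recorded for 37 of them in at least 1 library and for 32 in all 5 libraries. Hoxb13, Hoxc12 and Hoxd13 had none.

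HOX genes encode homeodomain transcription factors that give cells along the body axis their regional identity. Within a locus the genes lie in the order of their paralog numbers, and low-numbered (anterior) genes are used further forward in the embryo than high-numbered (posterior) genes. In the female tract, Hoxa9 to Hoxa13 are known for patterning the oviduct, uterus, cervix and vagina along its length. Many adult connective tissue and vessel cells keep a HOX pattern that reflects the region in which they arose.

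The study took ovaries from C57BL6/J mice, an inbred laboratory strain, at 2, 3, 4, 5 and 6 weeks (wk) after birth, with no treatment, and made 1 droplet single-cell library per age. All samples share strain and tissue and differ in age as far as the labels say, and no age has a second library. The 5 libraries held 7779 to 11077 cells each, 48163 in all, with 93438618 to 144609431 UMIs per library, of which 14905 to 33724 were HOX UMIs. Pairs of libraries shared 273 cell barcodes in all. Counting intervals given in the text cover counting error only.

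In the mesenchymal cells (stromal, smooth muscle and theca cells together) the 4 members with the highest level were Hoxd9 at 78.2 UMIs per 1000000 UMIs (CPM), Hoxc6 at 47.6, Hoxd8 at 47.5 and Hoxc8 at 37.9 CPM. The 3′ method counts 1 end of each molecule, so these levels were compared without division by gene length. The DNA before the RefSeq start sites of these genes and of paralogs of the same numbers is shown where the RefSeq promoter table (GRCm38.p6) held it, up to 250 bases 5′ to 3′ on the gene's strand, with CpG dinucleotides, the sites of DNA methylation, in capitals. The stretches hold no base of an annotated exon of the gene itself, which left 214 bases for Hoxd9. The Hoxa9 stretch lies inside the longer span that the gene annotation gives for Hoxa9 (chr6:52223100-52231089), and the other stretches end right before the annotated span of their gene.
Hoxd9, chr2:74697513-74697726, plus strand: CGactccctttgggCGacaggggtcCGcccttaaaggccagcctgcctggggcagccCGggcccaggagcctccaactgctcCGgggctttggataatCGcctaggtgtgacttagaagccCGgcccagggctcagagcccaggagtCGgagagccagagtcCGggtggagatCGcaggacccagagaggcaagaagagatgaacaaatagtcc
Hoxd8, chr2:74704365-74704614, plus strand: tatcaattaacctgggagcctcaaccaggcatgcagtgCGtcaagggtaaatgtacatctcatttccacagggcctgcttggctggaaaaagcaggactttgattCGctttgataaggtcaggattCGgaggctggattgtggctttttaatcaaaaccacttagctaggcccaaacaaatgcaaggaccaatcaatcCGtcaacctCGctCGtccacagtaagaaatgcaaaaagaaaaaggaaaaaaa
Hoxb8, chr11:96281655-96281904, plus strand: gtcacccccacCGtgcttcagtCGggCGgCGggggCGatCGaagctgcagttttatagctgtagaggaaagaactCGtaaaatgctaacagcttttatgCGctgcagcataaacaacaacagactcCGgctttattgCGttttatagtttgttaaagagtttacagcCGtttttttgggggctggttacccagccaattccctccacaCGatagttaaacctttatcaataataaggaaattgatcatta
Hoxa9, chr6:52227371-52227620, minus strand: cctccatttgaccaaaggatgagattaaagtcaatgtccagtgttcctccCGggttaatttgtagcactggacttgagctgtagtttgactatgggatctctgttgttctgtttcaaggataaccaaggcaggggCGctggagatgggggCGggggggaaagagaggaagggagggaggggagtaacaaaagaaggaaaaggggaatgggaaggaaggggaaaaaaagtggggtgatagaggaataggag
Hoxb6, Hoxb9, Hoxc6, Hoxc8 and Hoxc9 are named only. The Hoxd9 and Hoxd8 stretches held 10 and 6 CpG at a GC content of 63.6% and 44.4%, the Hoxb8 stretch held 12 CpG and the Hoxa9 stretch 3. Over all 32851 promoters of the table the 250 bases before the start held a median of 6 CpG, and over the 24 HOX promoters, of 22 symbols, the median was 12.5 (2 to 35). The letters TGATNNAT, to which HOX proteins can bind together with their PBX partners, were searched on both strands. They occurred in 1 of the 4 stretches, that of Hoxb8, in 4 of the 24 HOX promoters (16.7%) and in 7.68% of all promoters.

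Cells were clustered as in the study, but with the HOX genes and the other transcripts of the HOX loci kept out of the genes used for clustering, so that HOX levels did not draw the classes. Classes were then named from marker genes as stromal-like (13981 cells), smooth muscle-like (4007), theca-like (1264), pericyte-like (857), blood endothelial-like (717), lymphatic endothelial-like (223), surface epithelial-like (322), rete ovarii-like (90), granulosa-like (18237) and hematopoietic-like (498). The remaining 7967 cells stayed unnamed. The named classes were not free of other classes' markers. The list of stromal markers summed to 3359.6 CPM in stromal-like cells, 1548 in smooth muscle-like cells and 1349.8 in surface epithelial-like cells. Pericyte-like cells held the smooth muscle list at 4453 CPM, against 11139 in smooth muscle-like cells. Rete ovarii-like cells held the oviduct epithelium list at 576 CPM, against 6.79 CPM or less in every other named class, so their name goes with that reservation.

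RNA set free from broken cells can enter every droplet, and hematopoietic-like cells served as the reference for it. In these cells the stromal list summed to 393 CPM and Hoxd9 to 9.32 CPM, against 3359.6 and 88.8 CPM in stromal-like cells. Of cells thinned to 2000 UMIs each, 0.978% of 409 hematopoietic-like cells had a Hoxd9 UMI (exact 95% interval 0.267 to 2.48%). The same share was 17.4% in stromal-like cells and 20.7% in lymphatic endothelial-like cells. Before thinning, at a median of 9759 UMIs in stromal-like and 6696 in hematopoietic-like cells, the shares were 49.9% and 5.62%. Granulosa-like cells held the stromal list at 51.4 CPM, below the 393 CPM of the reference. How far the reference holds free RNA alone was not tested. Levels at or below those of hematopoietic-like cells were read as background.

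HOX RNA was found in every mesenchymal, vessel and epithelial class at several times the reference level. The summed HOX level was 340.3 ± 47.4 CPM (mean ± SD, n = 5 libraries) in stromal-like, 369 ± 47.8 in smooth muscle-like, 224 ± 23.5 in theca-like and 429 ± 59.7 in pericyte-like cells. It was 299.9 ± 63.5 in blood endothelial-like, 455 ± 87.0 in lymphatic endothelial-like and 401 ± 75.9 in surface epithelial-like cells. In granulosa-like cells, the cells that surround and feed the oocyte, it was 91.7 ± 20.9 CPM, and in hematopoietic-like cells 52.5 ± 17.0 CPM. Since CPM depends on the total RNA of a cell, the counts per cell are given as well: 3.95 HOX UMIs per stromal-like cell, 4.24 per lymphatic endothelial-like cell, 1.53 per granulosa-like cell and 0.468 per hematopoietic-like cell.

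**Figure D1:**
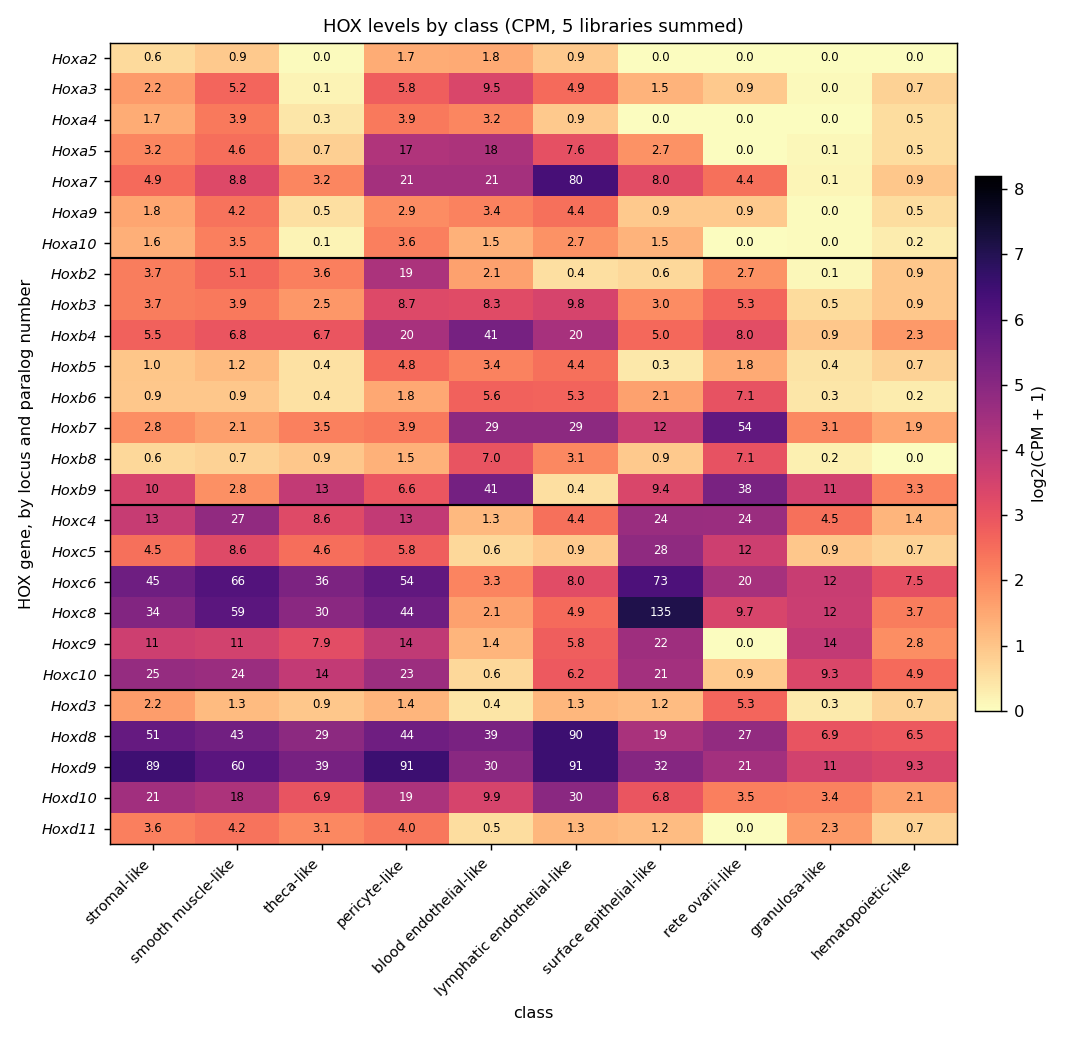
Level of HOX genes (rows, by locus and paralog number) in each cell class (columns), as CPM of the UMIs summed over the 5 libraries. Hoxd9 is the highest row in stromal-like cells (88.8 CPM) and Hoxc8 in surface epithelial-like cells (135 CPM), while Hoxc6 stands at 3.27 CPM in blood endothelial-like cells.

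The classes drew on different loci. In stromal-like cells 48.6% of HOX UMIs came from Hoxd and 38.4% from Hoxc, with 4.91% from Hoxa and 8.11% from Hoxb. Blood endothelial-like cells took 47.8% from Hoxb, 28.1% from Hoxd and 20.9% from Hoxa, and 3.21% from Hoxc. Surface epithelial-like cells took 73.6% from Hoxc. Granulosa-like cells took 56.5% from Hoxc and 0.370% from Hoxa, the lowest Hoxa share of the 10 named classes. By paralog number, genes 4 to 8 gave 75.3% of HOX UMIs in surface epithelial-like cells, and genes 9 to 13 gave 53.9% in granulosa-like cells, against 47.5% in stromal-like cells. Genes 1 to 3 stayed between 1.04% and 9.20% in every named class, with pericyte-like cells at the top. No test was made on these shares, which describe the 5 libraries together.

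**Figure D2:**
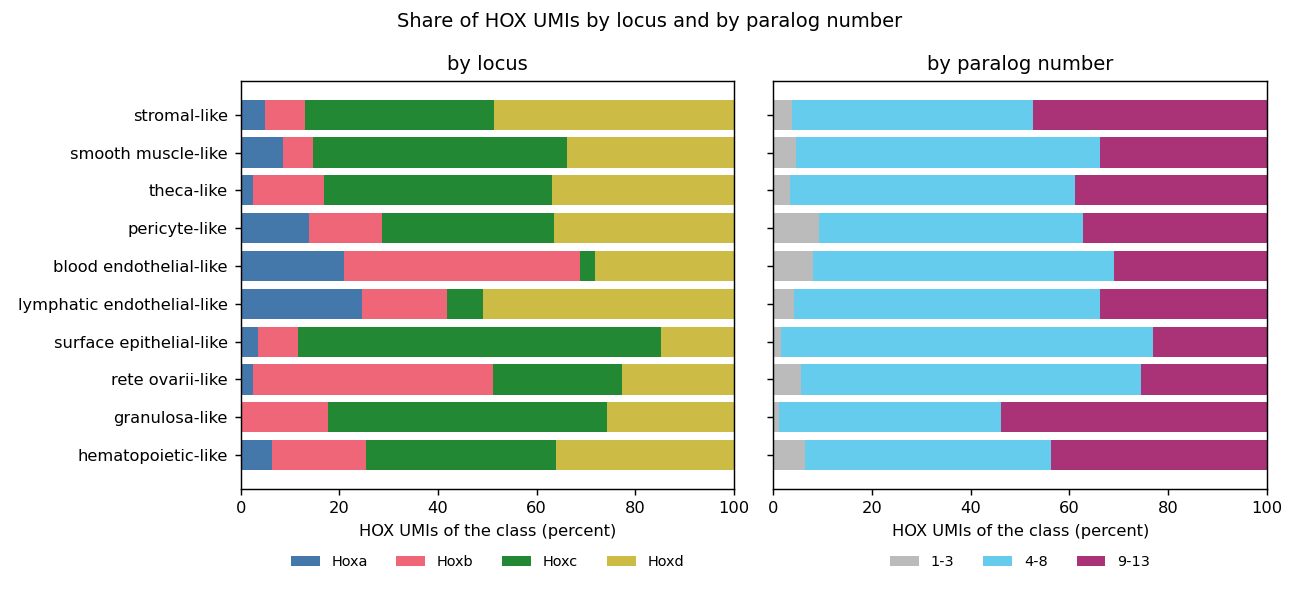
Percent of the HOX UMIs of each class that came from each locus and from 3 ranges of paralog number, 5 libraries together. The Hoxc part is 73.6% in surface epithelial-like cells and 3.21% in blood endothelial-like cells.

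Between stromal and granulosa cells, the comparison with the most cells, 25 HOX genes were higher in stromal-like cells and 0 lower. Hoxd9 stood at 92.5, 88.2, 103, 66.1 and 90.4 CPM in stromal-like cells at 2, 3, 4, 5 and 6 wk. In granulosa-like cells it stood at 8.67, 9.50, 9.84, 11.9 and 13.2 CPM. The Hoxd9 level of hematopoietic-like cells given above lies within this range. By the same rule, the 2 wk granulosa value was read as background. Before thinning, 9.99% of granulosa-like cells had a Hoxd9 UMI, against 5.62% of hematopoietic-like cells, at median depths of 14962 and 6696 UMIs. The stromal list was lower in granulosa-like than in hematopoietic-like cells (51.4 against 393 CPM). Whether the 2 wk value held free RNA alone was not tested. The whole Hoxd locus stood at 23.9 CPM in granulosa-like and 19.6 CPM in hematopoietic-like cells. For Hoxd9 the lowest stromal library lay above the highest granulosa library, and the log2 fold change was 3.19 ± 0.15 (SE). The adjusted p was 2.25e-06 in edgeR's quasi-likelihood test on sums per library and class, with the library as a block. Benjamini-Hochberg adjustment ran over all genes tested. Here and below, the SE of a log2 fold change is its absolute size divided by the square root of the test's F value. It is an approximation and is rough for genes with few UMIs. The 5 libraries served as units and differ in age, so the test asks whether a difference recurred over the ages. Of 14946 genes tested, 33.5% were higher and 35.8% lower in stromal-like cells. Of the 40 HOX features 29 passed the filter on low counts, which admits a gene through the class where it is high. The count of 25 therefore describes these genes and is not support for the family. The same holds for the HOX counts of the other comparisons between classes below.

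Hoxa genes, with Hoxb2, had the largest ratios of these 25, against granulosa levels near 0, where a fitted fold depends on the prior count. Hoxa3, Hoxa4, Hoxa5, Hoxa7 and Hoxa9 averaged 1.62 to 4.48 CPM in stromal-like cells and 0.0209 to 0.109 CPM in granulosa-like cells, with Hoxa7 higher by 5.64 ± 0.45 on the log2 scale (adjusted p = 3.2e-05 by edgeR). Among the Hoxc genes, Hoxc6 stood at 42.3, 23.6, 33.4, 52.0 and 66 CPM in stromal-like cells, higher by 1.98 ± 0.07 (adjusted p = 8.94e-07 by edgeR). Hoxc8, Hoxc4 and Hoxc10 were higher by 1.58 ± 0.11, 1.59 ± 0.10 and 1.75 ± 0.14. The posterior genes Hoxb9, Hoxc9 and Hoxd11 and the gene Hoxb7 were not called in this comparison.

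In granulosa-like cells Hoxc9 and Hoxb9 were among the leading members. Hoxc9 stood at 9.34, 9.44, 15.0, 15.4 and 16.9 CPM in granulosa-like cells and at 7.47, 7.24, 13.2, 12.1 and 17.6 CPM in stromal-like cells, so the ranges overlapped. Hoxb9 stood at 9.40, 8.16, 11.2, 12.4 and 11.6 CPM in granulosa-like cells and at 10.7, 10.5, 10.4, 8.84 and 9.20 CPM in stromal-like cells, again with overlap. Per 1000 cells, granulosa-like cells held 224 Hoxc9 UMIs and 175 Hoxb9 UMIs, while hematopoietic-like cells held 24.1 and 28.1. At 2000 UMIs per cell, 2.54% of granulosa-like cells had a Hoxc9 UMI (exact 95% interval 2.32 to 2.78%) against 0.244% of hematopoietic-like cells (0.00619 to 1.35%). The stromal list summed to 51.4 CPM in granulosa-like and 393 CPM in hematopoietic-like cells. Over the 9 granulosa-like clusters, Hoxd9 ran from 4.31 to 27.6 CPM, on both sides of its hematopoietic-like level, and Hoxc9 from 11.2 to 18.0 CPM.

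Smooth muscle cells, the contractile cells of the ovarian stroma and follicle wall, showed more Hoxa and Hoxc RNA and less Hoxb9 and Hoxd9 than stromal cells. Of 29 HOX features tested, 12 were higher and 3 lower in smooth muscle-like cells, beside 25.6% of all genes higher and 27.5% lower. The higher genes of the Hoxc locus were neighbours: Hoxc4, Hoxc5, Hoxc6 and Hoxc8. Hoxc4 stood at 26.4, 22.6, 25.9, 34.2 and 26.3 CPM in smooth muscle-like cells and at 14.4, 9.04, 11.7, 12.3 and 13.6 CPM in stromal-like cells. The ranges did not overlap, and the log2 fold change was 1.24 ± 0.09 (adjusted p = 2.41e-06 by edgeR). Hoxc8 stood at 60.2, 39.7, 51.9, 64.0 and 67.0 CPM against 31.7, 26.0, 24.7, 32.6 and 49.0 CPM, higher by 0.90 ± 0.09 and higher in 5 of 5 libraries. Hoxc5 was higher by 1.06 ± 0.11 and Hoxc6 by 0.61 ± 0.05.

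Of the Hoxa locus, Hoxa2, Hoxa3, Hoxa4, Hoxa5, Hoxa7, Hoxa9 and Hoxa10 were higher in smooth muscle-like cells, by 0.65 ± 0.17 (Hoxa5) to 1.41 ± 0.24 (Hoxa3) on the log2 scale, and so was Hoxb2 by 0.60 ± 0.19. Hoxa2, at 0.947 ± 0.340 CPM, lost its call without the 5 wk library (adjusted p = 0.0537 by edgeR) or the library block (0.166). By DESeq2 it was not called either (adjusted p = 0.124). Hoxb2 lost its call without the 2 wk (adjusted p = 0.0521 by edgeR) or the 5 wk library (0.117) or the block (0.435). With the libraries merged without integration neither was called (adjusted p = 0.322 for Hoxa2 and 0.066 for Hoxb2 by edgeR). Hoxb9 fell by 1.74 ± 0.21 on the log2 scale, from 9.94 ± 0.854 CPM in stromal-like to 2.88 ± 1.57 CPM in smooth muscle-like cells (adjusted p = 7.32e-05 by edgeR). This smooth muscle mean lay below the Hoxb9 level of hematopoietic-like cells and was read as background. Before thinning, 2.32% of smooth muscle-like and 2.21% of hematopoietic-like cells had a Hoxb9 UMI. Hoxd9 fell by 0.45 ± 0.05. A stromal group described below held Hoxd RNA at 480 CPM, against 169 CPM in stromal-like and 128 CPM in smooth muscle-like cells. The part of this group in the lower Hoxd9 was not tested. Hoxd3 fell by 0.74 ± 0.27, and its call was lost without the 3, 4 or 5 wk library (adjusted p = 0.102, 0.0983 and 0.101 by edgeR). The call was also lost by DESeq2 (adjusted p = 0.0755) and without the library block (adjusted p = 0.150 by edgeR). Hoxd3 shares 62.3% of its exon bases with Hoxd4 and another transcript on the same strand, so their reads cannot be told apart there. Smooth muscle-like cells also carried hemoglobin RNA (erythroid list 273 CPM, against 27.7 in stromal-like cells), whose part in these differences was not tested. Without the library block the comparison had 9 calls in place of 15.

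**Figure D3:**
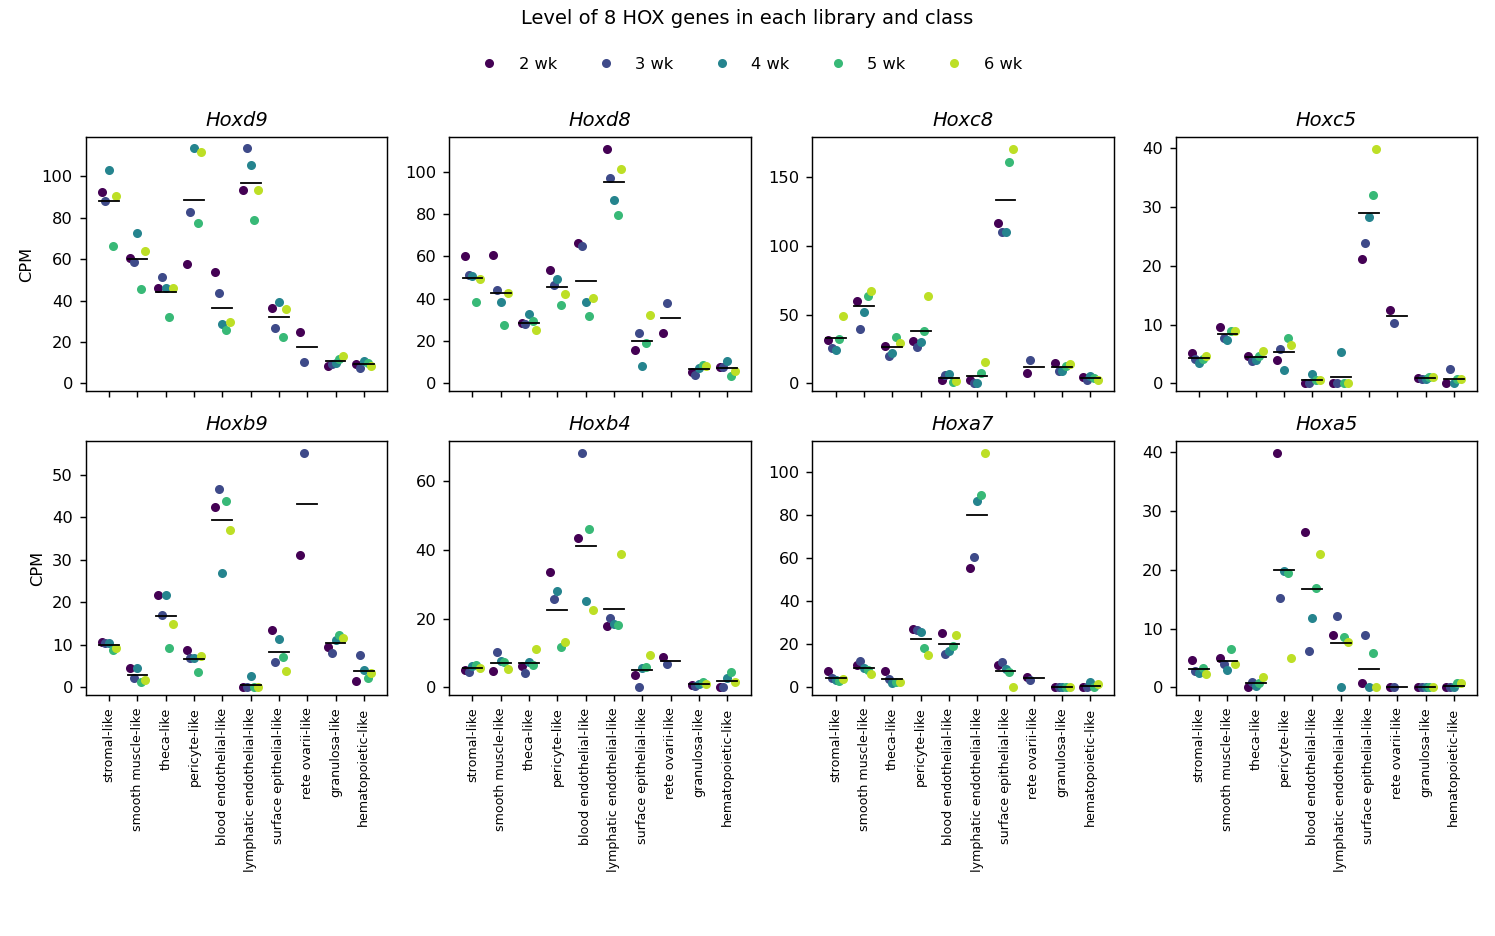
CPM of 8 HOX genes (panels) in each class (x axis) and library (points, coloured by age), with a bar at the mean over libraries. Hoxb9 separates blood endothelial-like (39.3 ± 7.76 CPM) from lymphatic endothelial-like cells, and Hoxc8 is above every stromal-like library in all 5 surface epithelial-like libraries.

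Within the mesenchymal cells, clustered again without HOX genes, Hoxd3, Hoxd8, Hoxd9 and Hoxd10 were highest in 1 stromal group. This group of 2362 cells was named from 8 markers that include Wt1, a regulator of gonad development, and Edn3, a secreted peptide. Its summed HOX level was 685 CPM. Hoxd9 stood there at 264, 278, 349, 206 and 259.9 CPM at 2, 3, 4, 5 and 6 wk, 4.3 times the level of all other mesenchymal cells (exact interval 4.15 to 4.45) and higher in 5 of 5 libraries. The study itself names a stromal group by Hoxd9, so this value is not independent evidence. Hoxd10 stood at 98.7, 50, 68.9, 57.9 and 90.4 CPM and was 5.55 times the rest (5.20 to 5.92). Hoxd8 at 109 CPM was 2.57 times the rest, Hoxd11 at 11 CPM 3.60 times and Hoxd3 at 5.86 CPM 3.64 times, each above the rest in 5 of 5 libraries. Of the HOX UMIs of this group 70.1% came from Hoxd and 2.92% from Hoxa. Its median depth was 6590.5 UMIs per cell, against 9759 in stromal-like cells, so its ratios by CPM are larger than by counts per cell. The group held 11342 HOX UMIs in 2362 cells, and stromal-like cells as a whole held 55284 in 13981 cells. Subclusters were compared with no test.

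In another stromal group several Hoxa genes stood above the rest of the mesenchymal cells, while Hoxc and Hoxd gave the larger shares of its HOX RNA. Cells marked by Pi16 and Col14a1, genes of adventitial fibroblasts, formed 2 subclusters of 455 and 380 cells, of which 32 and 15 were from 6 wk. Hoxa5 stood at 16.8, 9.72, 20.7, 18.3 and 23.5 CPM in the larger and at 16.5, 25.7, 27.2, 13.7 and 11.3 CPM in the smaller, 5.64 and 6.52 times the rest of the mesenchymal cells. In the smaller subcluster Hoxa7 (23.3 CPM), Hoxa9 (13.4 CPM) and Hoxb5 (12.4 CPM) were 4.57, 7.04 and 16.4 times the rest. The Hoxa locus gave 17.9% and 22.2% of their HOX UMIs, against 4.91% in stromal-like cells as a whole. Hoxd9 was below the rest in both, at 0.629 and 0.517 times.

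Posterior genes in the smaller subcluster depended on the library. Hoxa10 stood there at 29.2, 0, 3.63, 17.4 and 0 CPM (37, 0, 2, 19 and 0 UMIs) and Hoxd11 at 35.5, 5.85, 16.3, 34.7 and 0 CPM at 2, 3, 4, 5 and 6 wk. The 6 wk values rest on 15 cells, too few to tell 0 from a low level. In a contractile smooth muscle-like subcluster of 244 cells, of which 6 were from 6 wk, Hoxa10 stood at 14.6, 0, 0 and 34.9 CPM and Hoxd11 at 21.0, 2.83, 2.80 and 34.9 CPM from 2 to 5 wk. Of the 18 Hoxa11 UMIs of the whole series, 11 fell in this subcluster. In both subclusters these genes were highest in the 2 and 5 wk libraries.

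The same contractile subcluster held Hoxa7 at 15.5, 41.0, 42.0 and 33.1 CPM and Hoxc4 at 34.6, 59.3, 47.7 and 36.8 CPM from 2 to 5 wk, 5.73 and 2.99 times the rest. Hoxc8 (80.1 CPM) and Hoxc5 (13.8 CPM) were 2.14 and 2.68 times the rest. Hoxd9 at 15.2 CPM was 0.193 times the rest (0.139 to 0.260), the lowest Hoxd9 level of the mesenchymal subclusters. The Hoxa locus gave 20.5% of its HOX UMIs, a share between those of the Pi16 Col14a1 subclusters. The marker rule also gave the contractile smooth muscle name, from 4 of 6 markers, to a subcluster of 106 cells, 74 of them from 6 wk. Because interferon-induced genes led it, that subcluster is shown as unnamed. The main contractile subcluster of 1888 cells had Hoxc6 at 69.0 CPM, Hoxc8 at 65.2 CPM and Hoxd9 at 60.5 CPM.

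**Figure D4:**
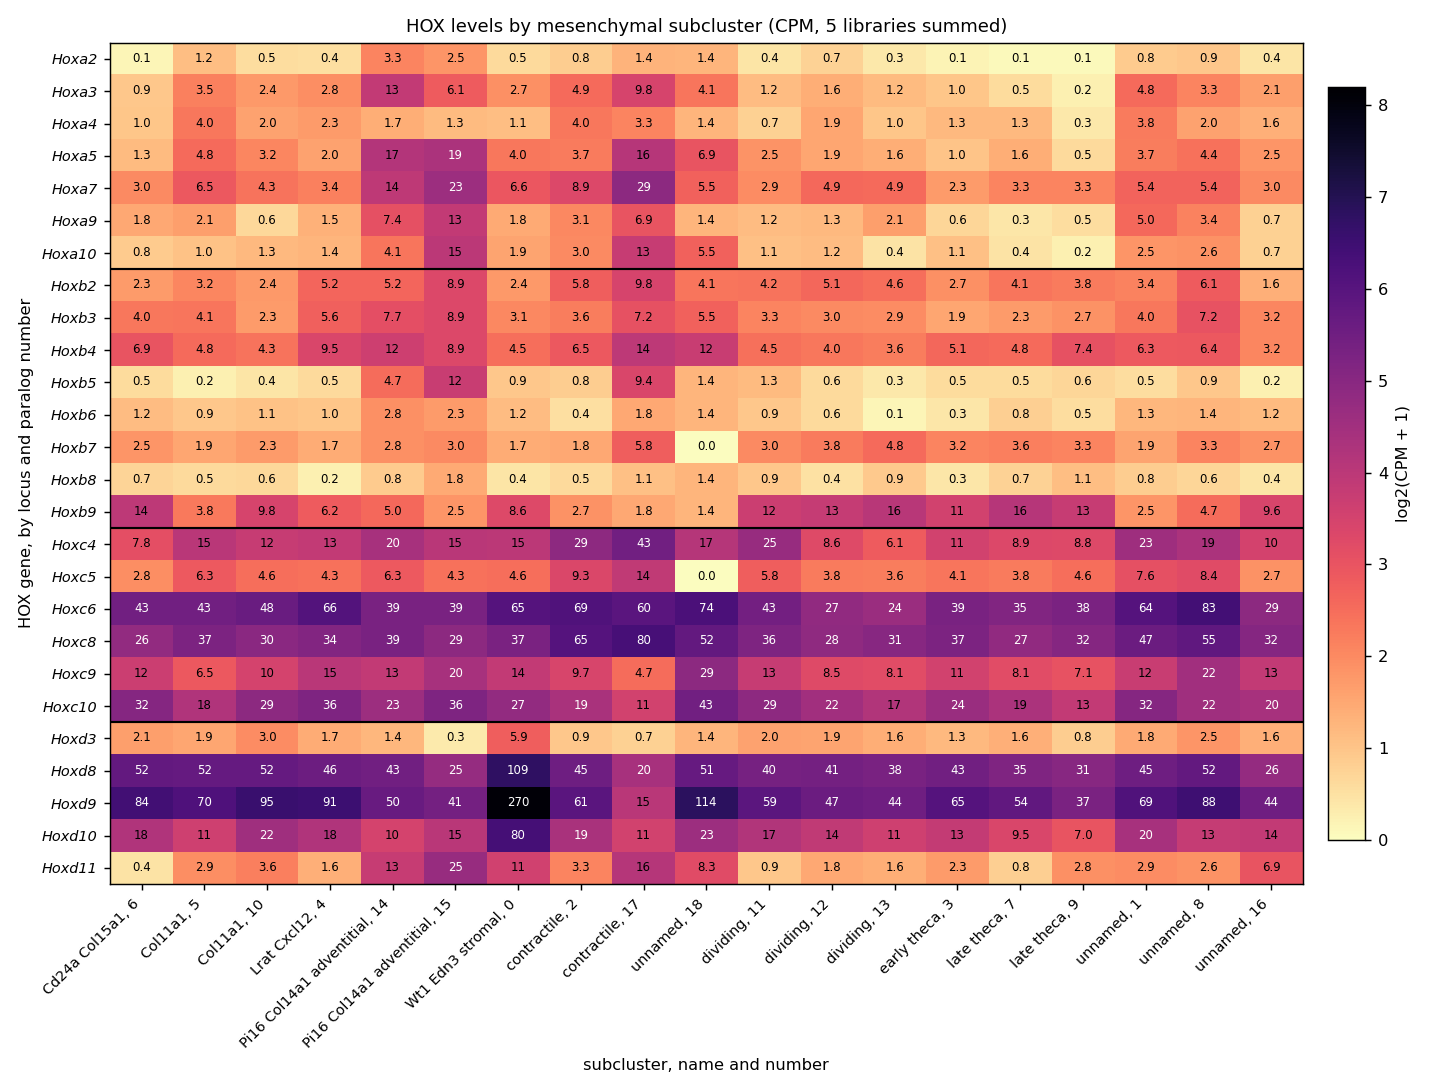
Level of HOX genes (rows) in each mesenchymal subcluster (columns), as CPM of the UMIs summed over libraries. Hoxd9 runs from 15.2 CPM in the small contractile subcluster to 270.3 CPM in the Wt1 Edn3 stromal subcluster.

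Theca cells make androgens in the follicle wall. The theca-like class had lower levels of many HOX genes than stromal-like cells, with Hoxb9 as the exception. The second clustering of mesenchymal cells named 1783 cells early theca and subclusters of 1014 and 866 cells late theca. As the theca-like class had 1264 cells, most of these, with part of the late theca cells, were classed as stromal-like or smooth muscle-like. Their part in this comparison was not tested. Of 25 HOX features tested 1 was higher and 11 were lower in theca-like cells, beside 21.1% of all genes higher and 24.1% lower. Hoxb9 stood at 21.7, 16.9, 21.7, 9.18 and 14.9 CPM in theca-like cells, above the stromal value of the same library in 5 of 5 libraries although the ranges overlapped, with a log2 fold change of 0.70 ± 0.16 (adjusted p = 0.0086 by edgeR). Hoxd9 stood at 45.9, 51.4, 45.9, 31.9 and 45.9 CPM and fell by 0.99 ± 0.09 (adjusted p = 6.24e-05 by edgeR). Hoxd10 fell by 1.49 ± 0.19, Hoxc10 by 0.87 ± 0.11, Hoxd8 by 0.76 ± 0.13 and Hoxa3 by 3.78 ± 0.68. Hoxa4, Hoxa5, Hoxa9, Hoxd3, Hoxb5 and Hoxc4 were the other genes that fell. Hoxb5 lost its call without the 2, 3, 4 or 6 wk library (adjusted p = 0.0595, 0.102, 0.0768 and 0.0763 by edgeR) and Hoxc4 without the 2, 3 or 6 wk library (0.0528, 0.0743 and 0.0727). Theca-like cells had a median depth of 17374 UMIs per cell against 9759 in stromal-like cells, and 4.16 HOX UMIs per cell against 3.95, so CPM and counts per cell order the 2 classes differently. They held the erythroid list at 271 CPM against 27.7 in stromal-like cells, and its part was not tested.

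Pericytes, the contractile cells wrapped around small vessels, had more RNA of several Hoxa and Hoxb genes numbered 7 or less than stromal cells. Of 25 HOX features tested 9 were higher and 2 lower in pericyte-like cells, beside 20.5% of all genes higher and 20.6% lower. The 9 all belonged to Hoxa and Hoxb with paralog numbers of 7 or less, among them Hoxa5, Hoxa7, Hoxb2, Hoxb4 and Hoxb5. Hoxb2 stood at 26.3, 7.0, 7.02, 16.0 and 24.9 CPM in pericyte-like cells and at 3.5, 1.0, 1.60, 4.00 and 6.95 CPM in stromal-like cells, higher in 5 of 5 libraries by 2.17 ± 0.24 on the log2 scale (adjusted p = 8.27e-06 by edgeR). Hoxa7 stood at 27.1, 26.8, 25.7, 18.3 and 15.2 CPM, all above the stromal libraries, with a log2 fold change of 2.23 ± 0.21. Hoxa5 was higher by 2.40 ± 0.29, at 19.9 ± 12.7 against 3.09 ± 0.916 CPM. Hoxa4 lost its call without the 2, 3 or 4 wk library (adjusted p = 0.0743, 0.134 and 0.0708 by edgeR), and Hoxb3 without the 2 wk library (0.0783). Hoxb9 fell by 0.67 ± 0.21, lost without the 3 wk (0.0512) or 5 wk library (0.0918). Hoxd8 fell by 0.24 ± 0.09 and lost its call when any 1 of the 5 libraries was left out (adjusted p of 0.0617 to 0.16 by edgeR). With the libraries merged without integration 6 genes were called in place of 11. Pericyte-like cells also held the blood endothelial list at 374 CPM, against 75.7 CPM in stromal-like and 4178 CPM in blood endothelial-like cells. The part of the smooth muscle and blood endothelial markers of pericyte-like cells in these differences was not tested.

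Blood vessel endothelium used Hoxb, Hoxd and Hoxa genes and had little Hoxc RNA. Of 26 HOX features tested 10 were higher and 10 lower in blood endothelial-like than in stromal-like cells, beside 22.5% of all genes higher and 26.6% lower. The higher genes were Hoxa3, Hoxa5, Hoxa7 and Hoxb3, Hoxb4, Hoxb5, Hoxb6, Hoxb7, Hoxb8 and Hoxb9. Hoxb7 stood at 37.9, 34.1, 16.8, 27.2 and 34.5 CPM in blood endothelial-like cells and at 2.98, 2.01, 2.56, 2.38 and 3.58 CPM in stromal-like cells, a log2 fold change of 3.29 ± 0.22 with no overlap (adjusted p = 4.05e-08 by edgeR). Hoxb4 stood at 43.6, 68.2, 25.2, 46.1 and 22.6 CPM against 5.08, 4.61, 6.24, 6.58 and 5.6 CPM, and was higher by 2.58 ± 0.23. Hoxb9 stood at 42.4, 46.5, 26.9, 43.7 and 36.9 CPM, higher by 1.86 ± 0.17, and again all above the stromal libraries. Hoxb8 was higher by 3.44 ± 0.39, at 6.81 ± 2.48 CPM, and Hoxb6 by 2.15 ± 0.40, at 4.45 ± 2.98 CPM. Hoxb3 lost its call without the 2 wk (adjusted p = 0.0512 by edgeR) or 5 wk library (0.0828), and Hoxb5 without the 2 wk library (0.0736).

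The Hoxc genes Hoxc4, Hoxc5, Hoxc6, Hoxc8, Hoxc9 and Hoxc10 fell in blood endothelial-like cells, with Hoxd3, Hoxd9, Hoxd10 and Hoxd11. Hoxc10 stood at 1.15, 0, 0, 0.784 and 0 CPM, against 17.8, 18.4, 36.7, 26.0 and 32.9 CPM in stromal-like cells, and fell by 5.64 ± 0.37 on the log2 scale (adjusted p = 3.69e-08 by edgeR). Hoxc6 stood at 6.88, 6.20, 0, 2.74 and 3.57 CPM and fell by 4.00 ± 0.28. Per 1000 cells Hoxc6 gave 39.1 UMIs in blood endothelial-like and 64.3 in hematopoietic-like cells, so its level there was read as background. Hoxd9, at 53.9, 43.4, 28.6, 25.9 and 29.8 CPM, fell by 1.48 ± 0.15. Hoxd8 stood at 66.5, 65.1, 38.7, 32.0 and 40.5 CPM and was not called (log2 fold change -0.28 ± 0.13, adjusted p = 0.0829 by edgeR). Hoxd3 lost its call without the 5 wk library (adjusted p = 0.069 by edgeR).

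Lymphatic and blood endothelial cells differed in Hoxb9 and Hoxa7. Only 6 of the 40 HOX features passed the filter on low counts, which can admit a gene through 1 class alone. Of these 6, 3 were higher and 2 lower in lymphatic endothelial-like cells, beside 10.6% of all genes higher and 12.3% lower. Hoxb9 had 1 UMI in the 223 lymphatic endothelial-like cells, at 4 wk, and 353 in the 717 blood endothelial-like cells. It fell by a fitted 6.19 ± 0.61 on the log2 scale (adjusted p = 5.3e-06 by edgeR), a size that depends on the prior count. At 1 UMI the SE of this fold is rough as well. At 2000 UMIs per cell, 7.54% of 570 blood endothelial-like cells had a Hoxb9 UMI (exact 95% interval 5.51 to 10.0%) and 0 of 208 lymphatic endothelial-like cells, which allows a share of up to 1.44% if 3 counts of the total are taken as the limit, while the exact 95% interval reaches 1.76%. Hoxa7 stood at 55.5, 60.7, 86.8, 89.3 and 109 CPM in lymphatic endothelial-like cells and at 25.2, 15.5, 16.8, 19.4 and 24.4 CPM in blood endothelial-like cells, higher by 1.96 ± 0.21 with no overlap (adjusted p = 1.29e-05 by edgeR). Hoxd8 at 111, 97.2, 86.8, 79.7 and 101 CPM was higher by 1.02 ± 0.17, and Hoxd9 at 93.2, 113, 105, 78.7 and 93.4 CPM by 1.41 ± 0.19. The lymphatic values at 6 wk rest on 13 cells. Hoxb4 fell by 1.05 ± 0.31, and this call was lost without the 2, 3 or 5 wk library (adjusted p = 0.0768, 0.0829 and 0.216 by edgeR). The call was also lost by DESeq2 (adjusted p = 0.148) and without the library block (adjusted p = 0.0587 by edgeR). Lymphatic endothelial-like cells held the theca list at 483 CPM against 16.7 in blood endothelial-like cells, and its part was not tested.

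The surface epithelium, the cell layer that covers the ovary, took the largest share of its HOX RNA from Hoxc. Of 22 HOX features tested 5 were higher and 6 lower than in stromal-like cells, beside 20.8% of all genes higher and 24.2% lower. Hoxc8 stood at 117, 109.9, 109.9, 161 and 171 CPM in surface epithelial-like cells, above every stromal library, with a log2 fold change of 1.80 ± 0.12 (adjusted p = 7.24e-09 by edgeR). Of 309 surface epithelial-like cells thinned to 2000 UMIs 24.3% had a Hoxc8 UMI (exact 95% interval 19.6 to 29.4%), against 0.978% of hematopoietic-like cells. Hoxc5 stood at 21.1, 23.8, 28.2, 32.0 and 39.8 CPM against 5.15, 4.23, 3.47, 4.21 and 4.72 CPM, higher by 2.46 ± 0.25 (adjusted p = 9.21e-07 by edgeR). Hoxb7 was higher by 1.90 ± 0.34. Hoxc4 (0.71 ± 0.23) and Hoxc6 (0.45 ± 0.12) were higher as well, and both lost the call without the 5 wk library (adjusted p = 0.176 and 0.0502 by edgeR).

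Hoxd genes fell in the surface epithelium. Hoxd9 stood at 36.2, 26.7, 39.5, 22.5 and 36.0 CPM, and fell by 1.67 ± 0.14 (adjusted p = 8.7e-08 by edgeR). Hoxd8 fell by 1.59 ± 0.21, Hoxd10 by 1.90 ± 0.29 and Hoxd11 by 2.08 ± 0.62, the last without a call when the 5 wk library was left out (adjusted p = 0.06 by edgeR). Hoxa4 had no UMI in surface epithelial-like cells and was called lower (adjusted p = 0.0159 by edgeR), and Hoxb2 fell by 2.86 ± 0.81. Both lost the call without the 2 wk library (adjusted p = 0.0693 and 0.0599 by edgeR). Surface epithelial-like cells held the rete ovarii list at 1227 CPM, against 1693 CPM in rete ovarii-like and 2.83 CPM in stromal-like cells. The part of the stromal and rete ovarii markers of surface epithelial-like cells in these levels was not tested.

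The rete ovarii-like cells, 53 at 2 wk, 31 at 3 wk and 6 later, were too few for a test. Hoxb genes gave 48.8% of their HOX UMIs. Hoxb7 stood at 56.1 and 51.6 CPM at 2 and 3 wk and Hoxb9 at 31.2 and 55.1 CPM. Of 90 cells at 2000 UMIs 12.2% had a Hoxb7 UMI (exact 95% interval 6.26 to 20.8%), against 0 of 409 hematopoietic-like cells, which allows a share of up to 0.733% by the same limit of 3 counts (exact 95% interval up to 0.898%). Hoxd3os1, a noncoding transcript of the Hoxd locus, stood at 71.1 and 41.3 CPM.

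Between the 2 and 6 wk libraries most HOX genes stayed within 2-fold, but this leaves out the ages between them. Over all 5 ages several genes of stromal-like cells varied more than 2-fold, while others did not. The highest library was 6.92 times the lowest for Hoxb2, 5.02 times for Hoxa10 and 2.54 times for Hoxd10, each lowest at 3 wk. It was 1.21 times the lowest for Hoxb9 and 1.56 times for Hoxd9, each lowest at 5 wk. With 1 library per age there is no test of age, and age, library and the counting software's version, which changed between 4 and 5 wk, cannot be told apart. Of HOX genes with at least 50 UMIs over both libraries, 1 was above and 2 below a 2-fold ratio of 6 wk to 2 wk among 24 in stromal-like cells, beside 4.12% of all genes above and 6.4% below. The numbers were 2 above and 1 below among 21 in smooth muscle-like cells (2.7% and 6.22% of all genes), and 1 above and 0 below among 16 in granulosa-like cells (6.41% and 7.14%).

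Hoxc9 had its highest value at 6 wk in stromal-like and in smooth muscle-like cells. In stromal-like cells it stood at 7.47, 7.24, 13.2, 12.1 and 17.6 CPM, a 6 wk to 2 wk ratio of 2.36 (exact interval 2.07 to 2.69). In smooth muscle-like cells it stood at 4.02, 8.32, 11.1, 12.3 and 15.2 CPM, a ratio of 3.78 (2.59 to 5.66). Its neighbour Hoxc10 stood at 10.5, 13.9, 32.5, 26.4 and 30.8 CPM in smooth muscle-like cells, a ratio of 2.95, with its highest value at 4 wk.

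Hoxd11 had ratios on opposite sides of 1 in 2 classes. In granulosa-like cells it stood at 0.290, 0.335, 1.43, 6.62 and 2.95 CPM at 2, 3, 4, 5 and 6 wk, a 6 wk to 2 wk ratio of 10.1 (exact interval 6.11 to 18.1). Hematopoietic-like cells had a Hoxd11 UMI in 2 of 498 cells, among 4293689 UMIs. The 2 and 3 wk granulosa values lay below that level and were read as background, so the ratio of 10.1 rests on a background value. In stromal-like cells Hoxd11 stood at 4.88, 1.28, 4.51, 5.25 and 2.17 CPM, a ratio of 0.445 (0.341 to 0.576). Hoxa9, at 3.04, 0.831, 1.26, 2.13 and 1.33 CPM in stromal-like cells, had a ratio of 0.436. Hoxb9 in smooth muscle-like cells, at 4.50, 2.21, 4.62, 1.25 and 1.81 CPM, had a ratio of 0.402. Its 3, 5 and 6 wk values there lay below its hematopoietic-like level and were read as background. The stromal values of Hoxa9 and Hoxd11 were lowest at 3 wk, and with the 3 wk library in place of the 2 wk library their ratios turned to 1.59 and 1.70. Giving each subcluster equal weight made their 6 wk to 2 wk ratios 0.879 and 0.783, so neither was past 2-fold.

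**Figure D5:**
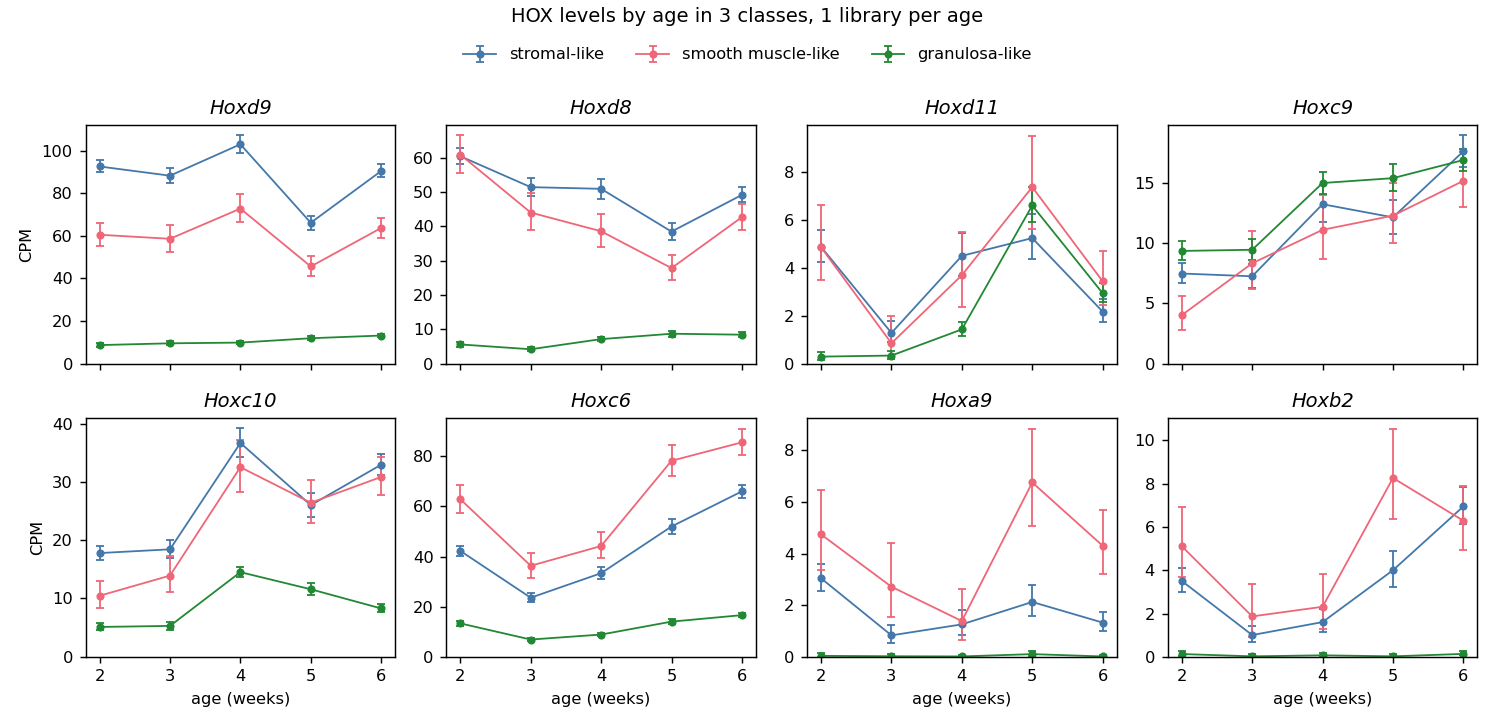
CPM of HOX genes (panels) against age in weeks in stromal-like, smooth muscle-like and granulosa-like cells, 1 library per age, with exact Poisson 95% intervals that cover counting error only. Hoxc9 of smooth muscle-like cells goes from 4.02 to 15.2 CPM, and Hoxd11 of granulosa-like cells is highest at 5 wk (6.62 CPM).

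Genes that act with or on HOX genes were read from lists, whose counts between stromal-like and granulosa-like cells stand beside 33.5% of all genes higher and 35.8% lower. Of 9 HOX cofactor genes tested (PBX, MEIS and PREP proteins, which bind DNA with HOX proteins), 6 were higher in stromal-like than in granulosa-like cells and 0 lower: among them Meis1 at 31.1 ± 6.07 against 8.84 ± 2.49 CPM (log2 fold change 1.97 ± 0.13), with Meis2 and Pknox2. In blood endothelial-like cells Meis2 was higher than in stromal-like cells (63.8 ± 10.2 against 24.4 ± 6.55 CPM, by 1.30 ± 0.17), while Meis1, Meis3 and Pknox2 fell. Of 16 chromatin regulators of HOX loci tested 4 were higher and 8 lower in stromal-like than in granulosa-like cells, and the 8 held the Polycomb genes Ezh2 and Suz12. Of 4 other transcripts of the HOX loci that were tested, all were higher in stromal-like cells, Hotairm1, a long noncoding RNA of the Hoxa locus, by 6.12 ± 0.22. Hotairm1 was also higher in smooth muscle-like than in stromal-like cells, at 19.4 ± 2.99 against 8.22 ± 0.888 CPM. Cdx1, Cdx2 and Cdx4, which switch on HOX genes in the embryo, did not pass the filter on low counts in the stromal and granulosa comparison.

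Of 12 regulators of the intermediate mesoderm, the embryonic source of the gonad, 8 were tested, and 4 were higher and 3 lower in stromal-like than in granulosa-like cells, beside the same 33.5% and 35.8% of all genes, with Tcf21 (6.34 ± 0.15) and Nr2f2 (3.13 ± 0.11) among the higher. Of 14 retinoic acid genes, whose signal sets HOX domains in the embryo, 12 were tested, and 5 were higher and 2 lower in the same comparison.

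The features not described by name each had little RNA. There are 13 such features, the highest of them with 229 UMIs over all libraries. They are the anterior genes Hoxb1 and Hoxd1, Hoxa6, both identifiers of Hoxd4, and the posterior genes Hoxa11, Hoxa13, Hoxb13, Hoxc11, Hoxc12, Hoxc13, Hoxd12 and Hoxd13. The 2 identifiers of Hoxd4 had 178 and 229 UMIs and were each held to the rule alone, so neither count gives the level of the whole gene.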

How the data were processed

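Single-cell RNA was measured in 5 mouse ovary libraries, 1 per age, with 93438618 to 144609431 UMIs each, so a count of 3 UMIs corresponds to 0.0207 to 0.0321 CPM over a whole library. The deposited UMI counts per gene and cell were made by the authors with Cell Ranger, version 3.1.0 for 2, 3 and 4 wk and 6.0.1 for 5 and 6 wk per the file headers, on GRCm38. HOX genes that overlap on 1 strand share exon bases, and reads from these bases cannot be told apart. The HOX members and the gene lists were chosen with earlier results of these data known.

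The study's steps were repeated with Seurat 5.3.0: 2000 variable genes, without HOX genes, 30 components and resolution 1. Doublets were marked with scanpy 1.11.5 and kept. Classes were named from marker lists. UMIs were summed per library and class and tested with edgeR 4.0.16 (R 4.3.3), library as a block, adjusted p under 0.05. Ratios between ages had no test and were called past 2-fold with at least 50 UMIs. Members with at least 1 CPM and 10 UMIs in a named class could be named. On simulated data, 87.5% of 200 genes changed 2-fold were recovered over 14946 genes of the stromal and granulosa comparison, with 6.42% false calls. The simulation gave both classes the same mean profile, with a fixed dispersion and no library effect. These rates hold for that setting and were not measured on the real counts. Alternatives were DESeq2 1.42.0, no block, no filter on low counts, other clusterings, doublets or weak cells left out, and each library left out. Some genes are not reported here.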

Additional observations from a re-analysis of the deposited data

Results flagged for a closer look

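Hoxd11 had a ratio of the 6 wk to the 2 wk library of 0.445 in stromal-like cells and of 10.1 in granulosa-like cells, on opposite sides of 1. The stromal ratio was 0.783, and no longer past 2-fold, with equal weight for each subcluster. The 2 wk granulosa level was read as background, as said above. With 1 library per age the difference between the classes was not tested.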

How the results depend on the processing

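Calls between classes were followed for HOX genes that pass the rule on named genes, and not for other members. Of 96 such calls, 74 held under every alternative run, 22 were lost under at least 1 and 0 took the other sign. The losses named for single genes above are mostly those from leaving 1 library out, while the count of 22 covers all alternatives. Without the library block, 9 HOX genes were called between smooth muscle-like and stromal-like cells in place of 15. With the libraries merged without integration, 6 were called between pericyte-like and stromal-like cells in place of 11. Without the filter on low counts, 8 were called between lymphatic and blood endothelial-like cells in place of 5. Among ratios past 2-fold between ages, of which the main count was 3 in stromal-like, 3 in smooth muscle-like and 1 in granulosa-like cells, the 3 wk library in place of the 2 wk library gave 6, 5 and 5. The 5 wk library in place of the 6 wk library gave 1 in stromal-like and 3 in granulosa-like cells, and equal weight for each subcluster gave 5 and 4. Equal weight also brought the stromal ratios of Hoxa9 and Hoxd11 to 0.879 and 0.783, so both lost their call. In stromal-like cells the ratio of Hoxa9 became 1.59 and that of Hoxd11 1.70 with the 3 wk library in place of the 2 wk library, and that of Hoxd11 1.08 with the 5 wk library in place of the 6 wk library. The cause was not tested for any of these. For 243 pairs of gene and class, the exact interval for the share of cells with a UMI was set against that of hematopoietic-like cells. It lay wholly above in 65 pairs at 2000 UMIs per cell. Without thinning, where depth differs between classes, it did so in 136 pairs. When 1 library at a time was left out, the calls ranged from 25 to 26 between stromal-like and granulosa-like cells. Against stromal-like cells they ranged from 12 to 16 for smooth muscle-like, 10 to 14 for theca-like, 8 to 11 for pericyte-like, 18 to 21 for blood endothelial-like and 9 to 12 for surface epithelial-like cells, and between the 2 endothelial classes from 4 to 6. Hoxd9 in the Wt1 Edn3 subcluster ranged from 260.5 to 276 CPM and the Hoxd share of stromal-like cells from 46.9 to 51.0%. Between ages no paired fit could be made, because each age has 1 library. Between classes the library was the block.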

Other observations

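Hoxc11, which was too low for the rule on named genes and was picked after its values were seen, had 2, 6, 31, 49 and 72 UMIs in the 2, 3, 4, 5 and 6 wk libraries. In stromal-like cells it stood at 0.0438, 0.173, 0.780, 1.33 and 1.30 CPM, so the 3 later libraries were above the 2 earlier ones. With 1 library per age, this has no test.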
